A study of Homo sapiens with 24 samples.

Results

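The lysosome is the acidic compartment in which cells break down proteins, glycans and lipids, and autophagy is the route that delivers parts of the cytoplasm to it. Hydrolases in the lumen carry out the breakdown, a proton pump (the V-ATPase) keeps the lumen acidic, and membrane glycoproteins form its boundary. The transcription factors TFEB and TFE3 move to the nucleus when nutrient signalling through mTORC1 is low, and they switch on many lysosomal and autophagy genes together through a short promoter motif. In glial cells this system is known for the turnover of membrane lipids, and inherited loss of its hydrolases causes storage diseases of the nervous system.

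The 37 lysosome and autophagy genes described here were chosen by name, with earlier results of these data known. Comparisons of the set with all genes are therefore not independent of these data. Their probes were those whose RefSeq transcript maps to the gene, without use of any measured value. They comprise 8 proteases, 6 glycosidases, 3 genes of sphingolipid breakdown and progranulin (together 17 luminal proteins), 5 membrane proteins, 8 genes of the V-ATPase, the 2 transcription factors TFEB and TFE3, and 5 autophagy genes. The array carried 48 probes for them. All 37 genes and all 48 probes were well above background on every one of the 24 arrays, so that none was lost to the filter on dim probes. They were tested among 14235 genes with a symbol, of 24817 that the array names.

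U251 is an established glioblastoma cell line, and G-1 is an agonist of the G protein-coupled estrogen receptor GPER. The 6 groups of 4 arrays were DMSO (the vehicle, 0.1% per the labels, while the study's methods give another concentration), G-1 at its IC50 and G-1 at 1 µM, each for 24 h and 72 h. The IC50 dose is the concentration that inhibits this line in the study's growth assay and lies below 1 µM. All groups, controls included, had been kept for 24 h in charcoal-stripped serum, which is poor in steroid hormones, before exposure began. The 4 arrays of a group are independent biological replicates of this 1 line, so the spread between them is that of separate cultures. The arrays titled 24 h of G-1 IC50, and those titled 72 h of G-1 1 µM, carry the other duration in 1 entry of their labels. The titles were followed here.

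Of the markers of astroglial and glioma cells, VIM, NES, GFAP, S100B, CD44, EGFR and SOX2 were above background on all 24 arrays. Of the markers of other cell types, PTPRC, CD3E, PECAM1, EPCAM, CDH1 and KRT5 were above background on 0 arrays, CD14 on 24, VWF on 23 and CDH5 on 16. The third slide held the 8 G-1 1 µM arrays and no others. It was scanned in a second session, in which 38.0% to 40.7% of spots were well above background, against 41.1% to 44.5% in the first. Within a duration, the effect of this dose and an effect of slide or session cannot be told apart. A constant offset of that kind cancels when the 72 h effect of G-1 1 µM is compared with its 24 h effect.

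The promoters of several of these genes hold the core CACGTG of the motif through which TFEB and TFE3 act. They are shown so that the measured changes can be set beside them. Windows from 250 bases before to 50 bases after the start of transcription were taken from RefSeq (GRCh38.p14) for the 24 of the 37 genes that have an entry. The core CACGTG, which reads the same on both strands, was present in 8 of the 24 (33.3%), against 8.77% of 27305 genes. The longer form CACGTGAC, searched on both strands and overlapping the core, was present in 5 (20.8%, against 2.93%), and the full palindrome, with GT before the core and AC after it, in 1, MCOLN1 (4.17%, against 0.421%). Capitals mark the core in the stretches of CTSF (chr11:66568647-66568736, minus strand), CTSD (chr11:1763928-1763997, minus strand), CTSA (chr20:45891265-45891334, plus strand), LAMP1 (chr13:113297039-113297158, plus strand) and MCOLN1 (chr19:7522554-7522623, plus strand). All lie upstream of the start, that of LAMP1 holds 4 of its 6 cores, and they are written 5′ to 3′ on the strand of the gene:

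CTSF: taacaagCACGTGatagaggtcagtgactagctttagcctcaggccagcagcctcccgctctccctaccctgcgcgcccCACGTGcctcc

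CTSD: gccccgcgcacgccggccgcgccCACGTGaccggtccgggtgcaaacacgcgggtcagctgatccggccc

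CTSA: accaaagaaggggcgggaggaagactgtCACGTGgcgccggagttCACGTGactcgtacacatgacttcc

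LAMP1: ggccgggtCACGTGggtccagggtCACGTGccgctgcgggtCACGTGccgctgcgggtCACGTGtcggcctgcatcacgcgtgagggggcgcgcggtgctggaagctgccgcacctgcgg

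MCOLN1: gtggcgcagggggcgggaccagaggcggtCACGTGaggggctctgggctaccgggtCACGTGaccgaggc

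After 72 h of G-1 1 µM, transcripts of most lysosomal hydrolases were lower than in DMSO, whereas MAP1LC3B and ATP6V1B2 were higher. TFEB and TFE3 each had 2 probes that moved in opposite directions, and they enter the counts by the brighter probe, TFEB as lower and TFE3 as higher. Of the 37 genes, 23 fell and 3 rose at an adjusted p under 0.05 (limma, Benjamini-Hochberg over 22970 probes), and 11 did not pass. This treatment changed 66.1% of all genes, 35.2% upward and 31% downward, so that the share of changed genes (70.3%) was close to the background while their direction was mostly downward. The arrays of the 2 groups did not overlap in 26 of the 37 genes, 23 of them lower, against 58.7% of all genes and 27.5% lower. The median log2 fold change of the 37 was -0.34, against 0.03 for all genes tested. At this duration the summed level of 9 markers of leukocytes, endothelial and epithelial cells was 0.56 to 0.76 (log2) on the G-1 1 µM arrays and 0.55 to 0.77 on those of DMSO. Within that list CD14 was higher (-0.07 to 0.23 against -1.39 to -1.09) while VWF (-2.28 to -1.77 against -0.55 to -0.25) and CDH5 (-4.07 to -2.57 against -2.50 to -2.29, above background on 0 arrays against 4) were lower, and the astroglial markers GFAP (3.56 to 4.44 against 6.46 to 7.07) and S100B (2.19 to 3.03 against 4.46 to 4.73) were lower. The part of these shifts in the results below was not tested. In total RNA from whole cultures, a lower level in every cell and a loss of the transcript in some of the cells cannot be told apart.

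**Figure D1:**
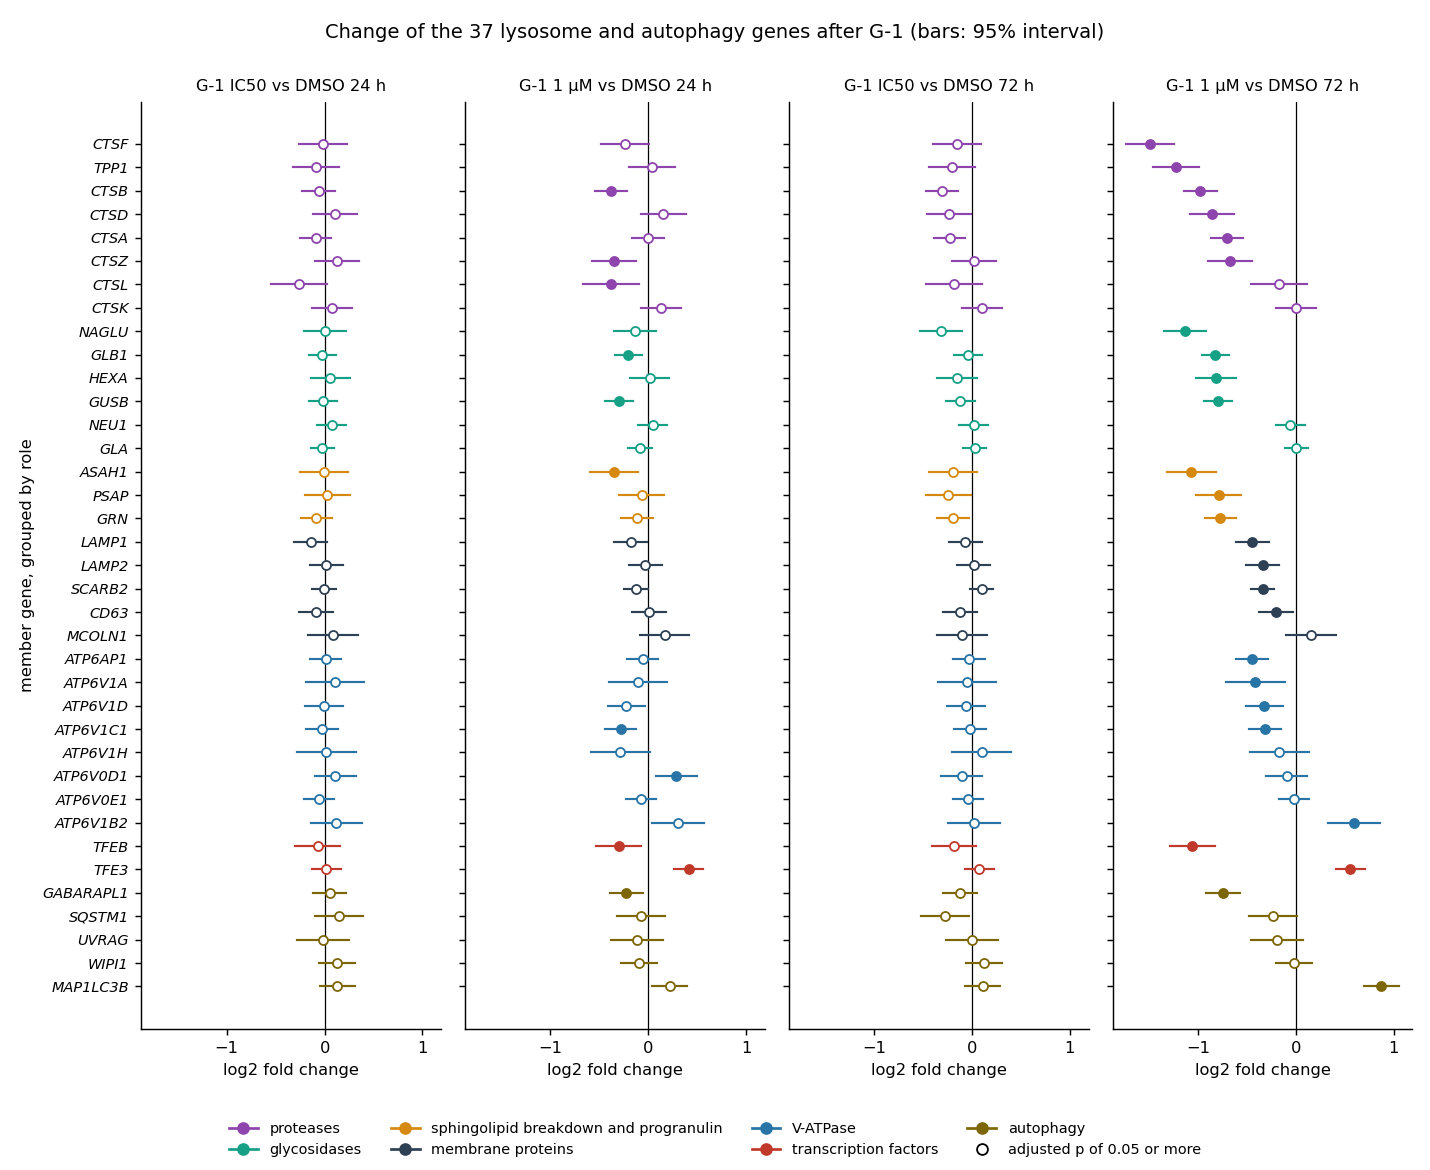
Log2 fold change (x axis) of each of the 37 genes (y axis, coloured by role) in the 4 comparisons with DMSO, from the brightest probe, with 95% intervals. Filled points passed an adjusted p of 0.05: 0 in G-1 IC50 at 24 h, 11 in G-1 1 µM at 24 h, 0 in G-1 IC50 at 72 h and 26 in G-1 1 µM at 72 h, where 23 lie to the left of 0.

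Of the 7 roles, the glycosidases (-0.80), the sphingolipid genes with progranulin (-0.79) and the proteases (-0.78) had the medians farthest from 0. After 72 h of G-1 1 µM, 13 of the 17 fell, 0 rose, and their median was -0.79 on the log2 scale. Levels below are log2 intensities relative to the 75th percentile of the array, 1 value per replicate, and they are compared within a gene only. CTSF, which encodes the cysteine protease cathepsin F, had levels of 6.45, 6.43, 6.18 and 6.75 in DMSO and 4.99, 4.94, 4.87 and 5.05 in G-1 1 µM at 72 h. Every treated replicate lay far below every control, a fall of 1.49 ± 0.12 (log2, SE), or 2.81-fold (adjusted p = 1.24e-09). Its level was 6.30 ± 0.14 (SD, n = 4) in G-1 IC50 at 72 h, which overlapped DMSO. TPP1 encodes tripeptidyl peptidase 1, a serine protease whose loss causes a childhood form of neuronal ceroid lipofuscinosis. Its levels were 5.47, 5.36, 5.36 and 5.52 in DMSO and 4.15, 4.15, 4.32 and 4.19 in G-1 1 µM, without overlap, and the fall was 1.23 ± 0.11 (adjusted p = 1.09e-08). A dimmer probe of TPP1 fell too, by 0.82 ± 0.13.

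Of the other proteases, the cysteine protease CTSB fell by 0.98, the aspartic protease CTSD by 0.85, the serine carboxypeptidase CTSA by 0.70 and the carboxypeptidase CTSZ by 0.67 on the log2 scale, each without overlap between the groups. CTSD went from 8.33, 8.26, 8.31 and 8.40 in DMSO to 7.21, 7.68, 7.59 and 7.40 in G-1 1 µM. CTSL and CTSK, 2 further cysteine proteases, did not pass the test, with log2 fold changes of -0.17 (95% interval -0.46 to 0.11) and 0.00 (-0.20 to 0.21). The interval of CTSK holds no change as large as that of any of the 6 proteases that fell.

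Among the glycosidases, NAGLU, which removes N-acetylglucosamine from heparan sulfate, fell by 1.13 ± 0.10 (adjusted p = 9.34e-09). Its levels at 72 h were 5.72, 5.51, 5.77 and 5.84 in DMSO, 5.39, 5.28, 5.47 and 5.42 in G-1 IC50 and 4.44, 4.63, 4.66 and 4.58 in G-1 1 µM. All 4 arrays of G-1 IC50 were below all 4 of DMSO and above all 4 of G-1 1 µM. The beta-galactosidase GLB1 fell by 0.82, HEXA, the alpha subunit of beta-hexosaminidase, by 0.81, and the beta-glucuronidase GUSB by 0.79. The alpha-galactosidase GLA was at 0.01 (-0.11 to 0.12) and the sialidase NEU1 at -0.06 (-0.20 to 0.09), and neither passed. ASAH1, the acid ceramidase, had levels of 6.27, 6.42, 6.23 and 6.59 in DMSO and 5.35, 5.13, 5.39 and 5.36 in G-1 1 µM, a fall of 1.07 ± 0.12 with no overlap (adjusted p = 1.54e-07). PSAP, the precursor of the saposins that present sphingolipids to their hydrolases, fell by 0.79 ± 0.11, and by 0.86 at its dimmer probe. GRN, which encodes progranulin, fell by 0.77 ± 0.078.

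Genes that fell were found among the proteases (6 of 8), the glycosidases (4 of 6) and the sphingolipid genes with progranulin (3 of 3), and 4 of the 17, CTSF, TPP1, NAGLU and ASAH1, passed a fold change of 2. With the brighter probe of TFEB, whose dimmer probe rose, these made 5 of the 37 genes that changed more than 2-fold at 72 h of G-1 1 µM, against 12.3% of all genes in either direction and 7.42% downward.

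**Figure D2:**
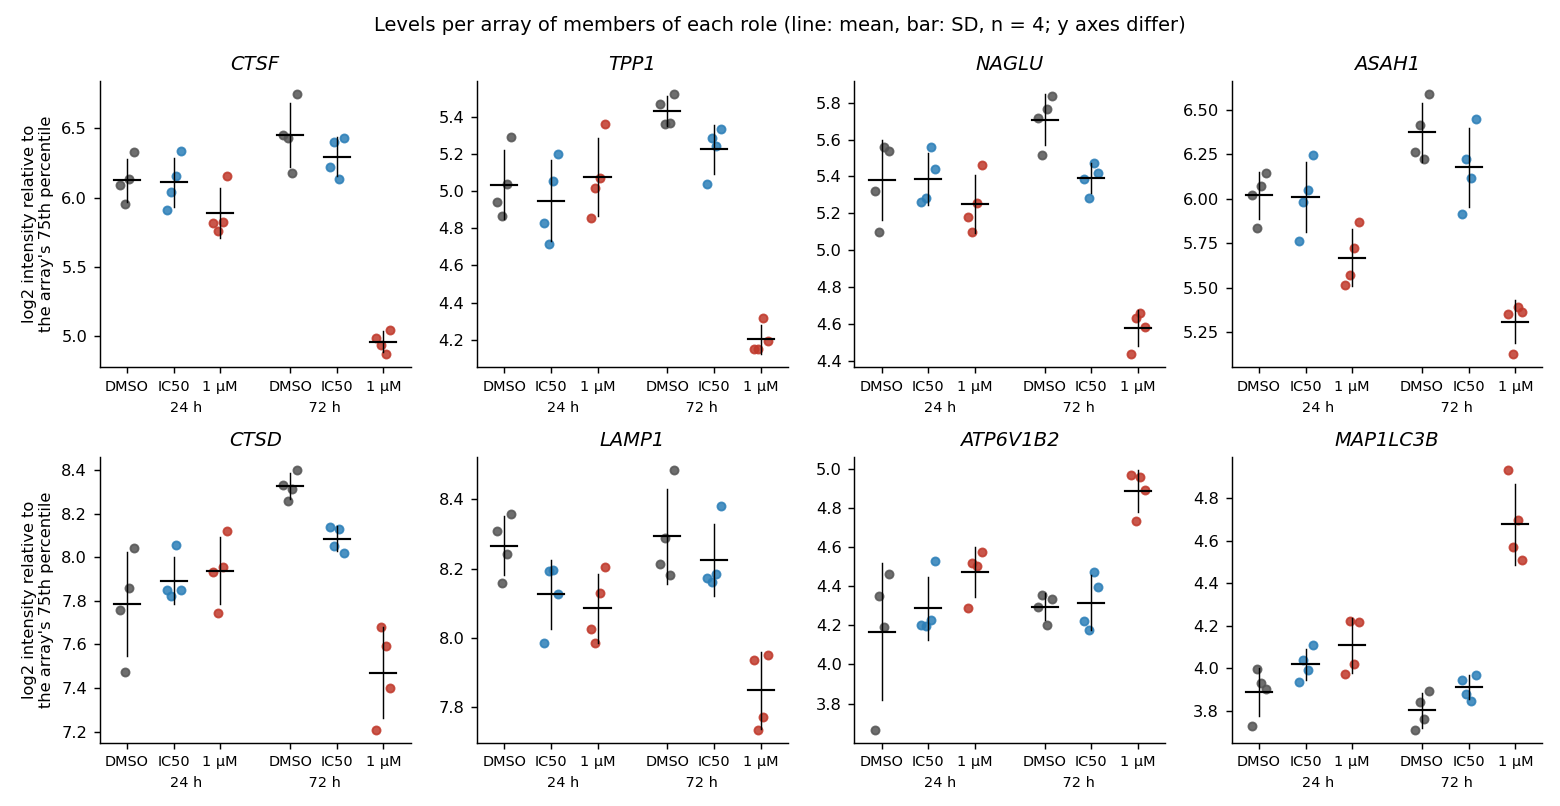
Log2 intensity relative to the 75th percentile of the array (y axis) for 8 genes in the 6 groups (x axis), with 1 point per array, the mean as a line and the SD as a bar (n = 4). In CTSF, TPP1, NAGLU and ASAH1 the 4 points of G-1 1 µM at 72 h lie below all others of that duration, and in ATP6V1B2 and MAP1LC3B they lie above them.

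The membrane proteins moved less. LAMP1, a major glycoprotein of the lysosomal membrane, fell by 0.45 ± 0.08 (adjusted p = 6.49e-05), from 8.21, 8.29, 8.18 and 8.49 in DMSO to 7.94, 7.73, 7.77 and 7.95 in G-1 1 µM. These ranges did not overlap. LAMP2 fell by 0.34, SCARB2, a membrane glycoprotein that acts as a sorting receptor for lysosomal enzymes, by 0.34, and the tetraspanin CD63 by 0.20 (adjusted p = 0.0437). The call for CD63 was the least firm of the 26 and was lost in 11 of the alternative analyses. MCOLN1, a cation channel that releases calcium from lysosomes, was at 0.16 (-0.10 to 0.41) and did not pass.

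The 8 genes of the V-ATPase were split. ATP6V1B2, a subunit of the part of the pump that hydrolyses ATP, rose by 0.59 ± 0.13 (adjusted p = 3.89e-04), from 4.29, 4.36, 4.20 and 4.34 in DMSO to 4.97, 4.74, 4.96 and 4.89 in G-1 1 µM. All treated arrays were above all controls. In contrast, ATP6V1A, which carries the catalytic site, fell by 0.41 ± 0.14, ATP6V1C1 by 0.31, ATP6V1D by 0.32 and the accessory protein ATP6AP1 by 0.45. The call for ATP6V1A was lost when replicate 4 of DMSO 72 h or replicate 2 of G-1 1 µM 72 h was left out, and the dimmer probe of ATP6V1C1 was at 0.05 and did not pass. ATP6V1H and the membrane subunits ATP6V0D1 and ATP6V0E1 did not pass, at -0.17, -0.09 and -0.02.

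Of the 5 autophagy genes, 1 rose and 1 fell. MAP1LC3B encodes LC3B, the ubiquitin-like protein that is attached to autophagosome membranes. It rose by 0.88 ± 0.085 (adjusted p = 2.44e-08), from 3.71, 3.84, 3.76 and 3.89 in DMSO to 4.93, 4.57, 4.70 and 4.51 in G-1 1 µM, and its second probe rose by 0.91 ± 0.13. Both probes were higher on all 4 treated arrays than on any control. GABARAPL1, a protein of the same family, fell by 0.75 ± 0.083, and by 0.27 at its dimmer probe. The receptor SQSTM1 (p62), which is itself degraded by autophagy, was at -0.23 (-0.47 to 0.02), WIPI1, which binds phosphoinositides on forming autophagosomes, at -0.01, and UVRAG, a partner of the PI3 kinase complex, at -0.19. None of these 3 passed.

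For the transcription factors the direction depended on the probe. The brighter TFEB probe fell by 1.06 ± 0.11 (adjusted p = 6.03e-08), from 3.79, 3.81, 3.81 and 3.83 in DMSO to 2.69, 2.91, 2.66 and 2.74 in G-1 1 µM at 72 h. The dimmer TFEB probe, which is annotated to another RefSeq transcript of the gene, rose by 2.21 ± 0.41 (adjusted p = 9.77e-05), from 1.14, 1.01, 0.84 and -0.06 to 3.06, 3.13, 2.79 and 2.79. Both probes were well above background on all 24 arrays and both separated the groups without overlap, in opposite directions. With the mean of both probes, TFEB was at 0.58, opposite in sign to the brighter probe. At 24 h the replicates of the dimmer probe were far apart, with levels of 0.86, 1.42, -0.03 and -0.11 in DMSO, and its change of -0.48 did not pass.

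TFE3, the second factor of this family, also had 2 discordant probes, both annotated to the same transcript. The brighter rose from 2.56, 2.40, 2.48 and 2.33 in DMSO to 2.98, 3.01, 3.08 and 2.94 in G-1 1 µM at 72 h, by 0.56 ± 0.071 (adjusted p = 1.04e-06). The dimmer fell from 1.09, 1.18, 1.18 and 1.04 to 0.60, 0.77, 0.77 and 0.68, by 0.42 ± 0.09 (adjusted p = 4.40e-04). The same split was present at 24 h, at 0.41 and -0.28, both past the threshold. No direction for the total TFEB or TFE3 transcript is therefore given by these arrays. The 3 probes of LAMP2, annotated to 3 different transcripts, also differed at 72 h, with -0.34 at the brightest, 0.08 (not passed) at the middle and -1.001 at the dimmest. In CTSA, TPP1, PSAP, MAP1LC3B and GABARAPL1, every probe passed in the direction of the brightest. Both NEU1 probes did not pass.

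**Figure D3:**
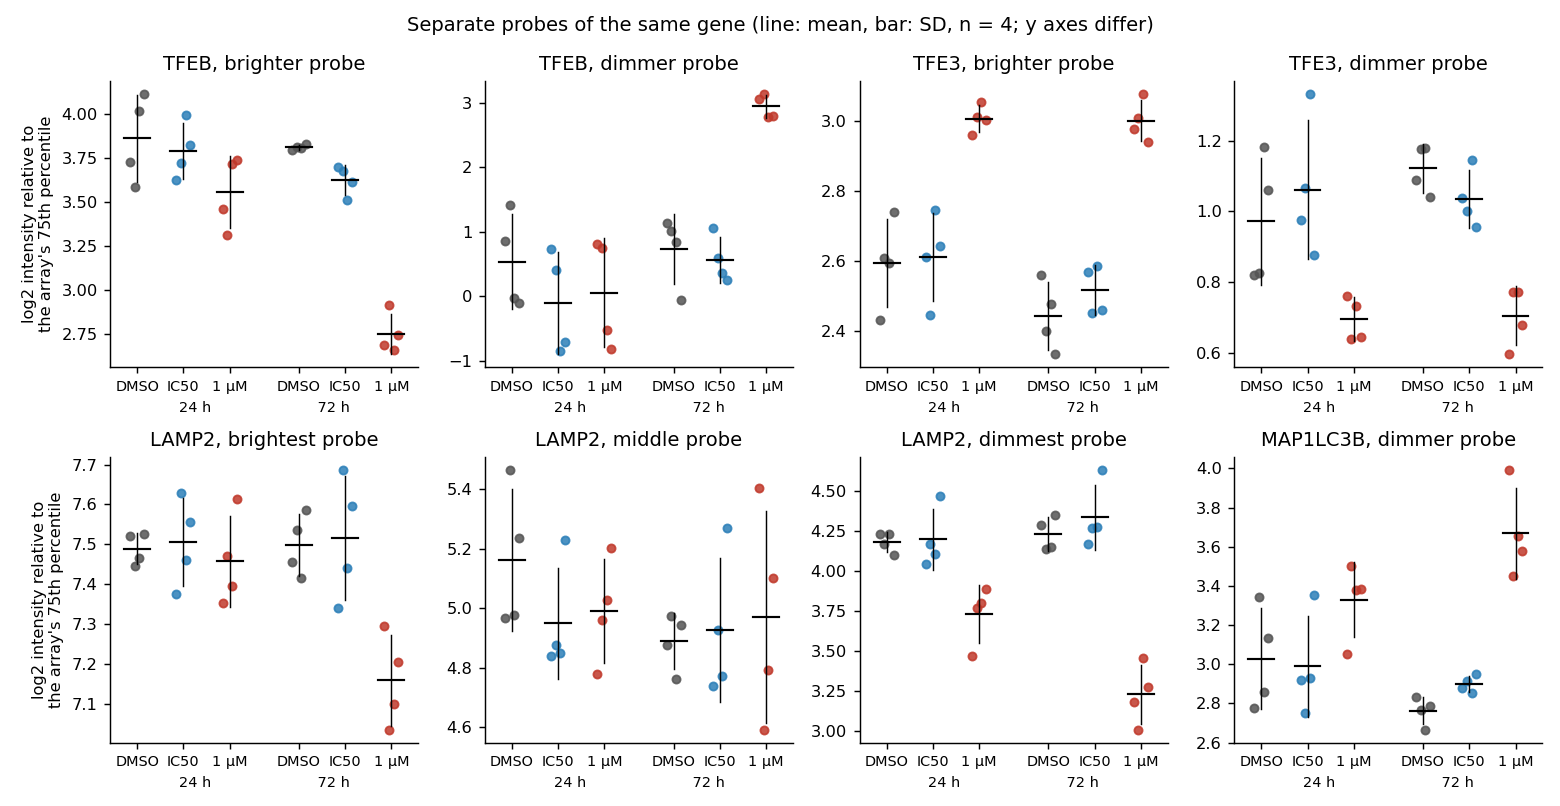
Log2 intensity relative to the 75th percentile of the array (y axis) of separate probes of TFEB, TFE3, LAMP2 and MAP1LC3B in the 6 groups (x axis), with 1 point per array, mean and SD (n = 4). At 72 h of G-1 1 µM the TFEB and TFE3 probes of each pair move in opposite directions.

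Genes with the core CACGTG were found both among those that fell and among those that did not. Among the 23 genes that fell at 72 h of G-1 1 µM, 5 of the 15 with a promoter entry held the core CACGTG (33.3%), and among the 14 that did not fall, 3 of 9 did (33.3%). For CACGTGAC the shares were 20% and 22.2%, and for the full palindrome 0% and 11.1%, and no difference was tested. CTSF, CTSD, CTSA, LAMP1 and CD63 hold the core CACGTG and fell, whereas MCOLN1, with the full palindrome, ATP6V0D1 and NEU1 hold the core and did not pass. A match of letters is a description of the window and not a bound site.

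At 24 h the changes under G-1 1 µM were fewer and smaller. Of the 37 genes, 9 were lower and 2 higher, against 30.6% of all genes (20% higher and 10.5% lower), and none passed a fold change of 2, against 1.69% of all genes. At this duration CD14 was at -0.79 to -0.39 in G-1 1 µM and -1.46 to -1.12 in DMSO, without overlap, and its part in these results was not tested. Those lower were CTSB (-0.38), CTSL (-0.38), CTSZ (-0.35), ASAH1 (-0.35), TFEB (-0.30), GUSB (-0.30), ATP6V1C1 (-0.28), GABARAPL1 (-0.22) and GLB1 (-0.20). The 2 higher were ATP6V0D1 (0.29) and TFE3 by its brighter probe (0.41), whose dimmer probe was lower (-0.28), so that TFE3 lost the call with the mean of its probes. CTSB and GUSB passed in every alternative without a fold threshold, and the other 9 each lost the call in at least 1. With arrays scaled to their 50th percentile 5 genes were lower and 0 higher, against 15.2% of all genes changed. Quantile normalization gave 15 and 1, against 29.0%, and the normexp background correction 12 and 1, against 22.3%. The count fell to 6 without replicate 3 of DMSO, or replicate 1 or 2 of G-1 1 µM, and to 7 without replicate 4 of DMSO or replicate 3 of G-1 1 µM. In these fits 22.76% to 25.65% of all genes changed.

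CTSL, which passed at 24 h, did not pass at 72 h (-0.17), and its interaction with duration, 0.21 (-0.19 to 0.62), did not pass either. CTSB was lower at both durations, with levels of 5.90 ± 0.14 in DMSO and 5.52 ± 0.12 in G-1 1 µM after 24 h, against 6.17 ± 0.13 and 5.20 ± 0.082 at 72 h (mean ± SD, n = 4). Several genes with large changes at 72 h did not pass at 24 h. The 24 h values were 0.04 for TPP1, 0.01 for HEXA, -0.01 for CTSA and 0.15 for CTSD, with 95% intervals of -0.19 to 0.28, -0.19 to 0.22, -0.17 to 0.16 and -0.07 to 0.38. In each the interval lay above the fold change measured at 72 h.

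The difference between the durations was tested directly, as the interaction between dose and duration for G-1 1 µM, in which a constant offset of the third slide cancels. Here 17 of the 37 genes were lower at 72 h than at 24 h relative to DMSO and 1 was higher, against 34.1% of all genes, 16.4% higher and 17.7% lower. Of the 17 luminal proteins 12 were lower. Among the brightest probes, the largest differences were those of TPP1 (-1.27 ± 0.16), CTSF (-1.25 ± 0.17), CTSD (-1.01 ± 0.15) and NAGLU (-1.002 ± 0.15), and MAP1LC3B was higher by 0.66 ± 0.12. With the slide as a block, 18 were lower and 1 higher, against 37.7% of all genes changed. CTSL, CTSK, GLA, NEU1 and CTSZ were the luminal genes that did not pass. The 2 TFEB probes were again opposite, at -0.76 and 2.69.

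In DMSO alone, 4 of the genes rose from 24 h to 72 h, and this difference enters the interaction. CTSD rose by 0.54 ± 0.11 (adjusted p = 0.0099), CTSA by 0.30, GLB1 by 0.25 and SCARB2 by 0.21, and 0 genes fell, against 3.34% of all genes changed, 1.29% higher and 2.05% lower. All arrays of these genes at 72 h lay above all at 24 h, as did those of TPP1, HEXA, CTSB and ASAH1, which did not pass. These 8 genes without overlap, all higher, compare with 4.33% of all genes higher and 8.44% lower. CTSD was at 7.76, 7.47, 7.86 and 8.04 at 24 h and 8.33, 8.26, 8.31 and 8.40 at 72 h in DMSO. Under G-1 1 µM it was at 7.93, 7.75, 7.96 and 8.12 at 24 h and 7.21, 7.68, 7.59 and 7.40 at 72 h, so that its order by duration was opposite in the 2 treatments. CTSD kept its call each time 1 array was left out, but lost it with no filter on dim probes, with only the arrays compared and with the methods' t-test after adjustment. The count fell to 1 without replicate 2 or 3 of DMSO 24 h, or without any replicate of DMSO 72 h. In these fits 1.48% to 2.34% of all genes changed.

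**Figure D4:**
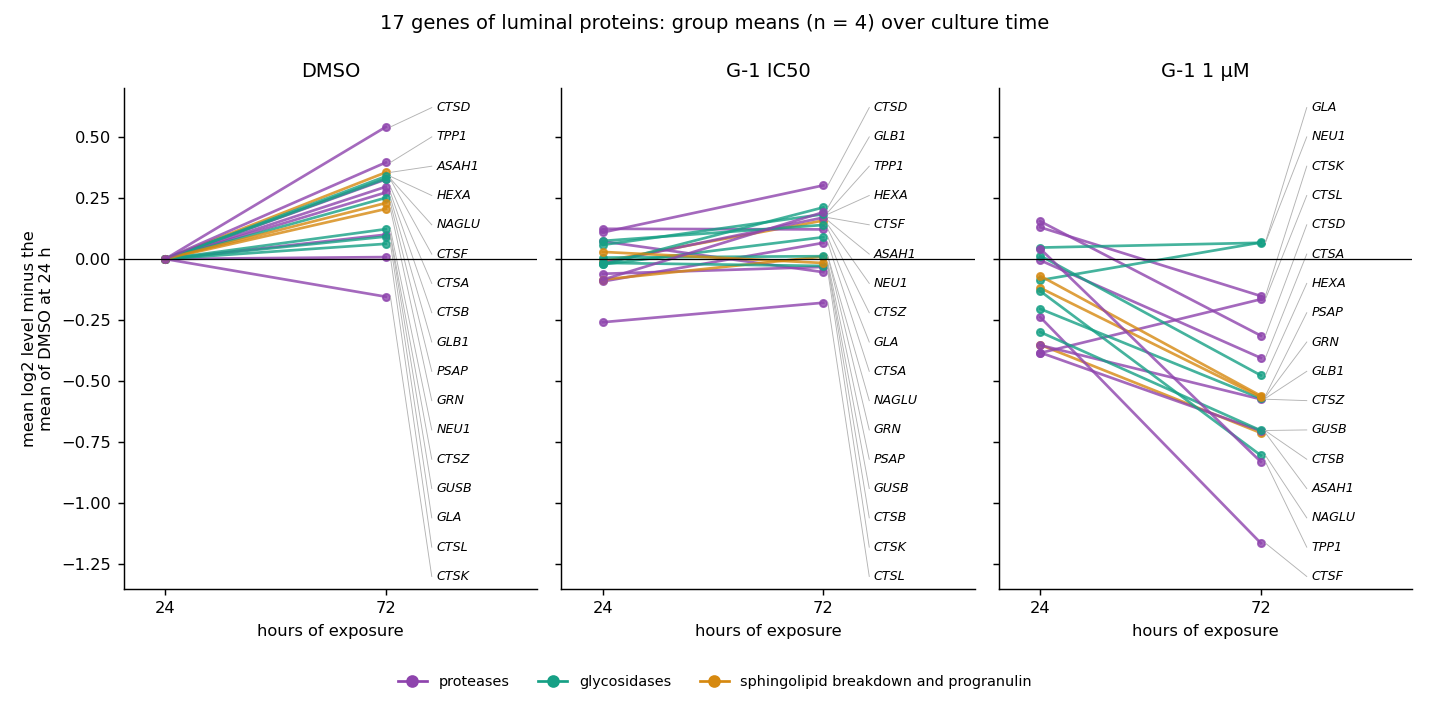
Mean log2 level of the 17 luminal genes relative to DMSO at 24 h (y axis) at 24 h and 72 h of exposure (x axis), in 1 panel per treatment, with each line a gene and each point a group mean (n = 4). In DMSO CTSD rises by 0.54, and in G-1 1 µM most lines fall from 24 h to 72 h.

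G-1 IC50 changed none of the 37 genes past the threshold at 24 h (limma), against 0.246% of all genes. The methods' t-test without adjustment also gave 0, against 4.5% of all genes. The 95% intervals of the 37 differences lay between -0.55 and 0.40 on the log2 scale, which leaves out a fall as large as that of any of the 5 genes that changed more than 2-fold under G-1 1 µM. At 72 h again 0 passed, against 0.906% of all genes. The methods' t-test without adjustment gave 10, against 10.8% of all genes. The luminal proteins had a median of -0.19, against -0.02 for all genes. By the brightest probe, the arrays of CTSA, CTSB, CTSD, GRN, NAGLU, TFEB and TPP1 were all lower than those of DMSO. These 7 genes compare with 4.9% of all genes without overlap in this direction. The dimmer probes of TFEB and TPP1 overlapped DMSO, and that of CTSA did not. CTSB was the nearest to the threshold, at -0.30 ± 0.08 (95% interval -0.47 to -0.14, adjusted p = 0.0936), with levels of 6.25, 6.03, 6.11 and 6.30 in DMSO and 5.82, 5.94, 5.84 and 5.85 in G-1 IC50. NAGLU was at -0.32 ± 0.10 (adjusted p = 0.236). The interaction of G-1 IC50 with duration passed in 0 genes, against 0.014% of all genes.

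The doses were also compared with each other. At 72 h, 22 genes were lower and 3 higher in G-1 1 µM than in G-1 IC50, against 65.1% of all genes (29.3% lower, 35.9% higher). The median of the luminal proteins was -0.66. CTSF (-1.33 ± 0.12) and TPP1 (-1.02 ± 0.11) passed a fold change of 2, against 11.4% of all genes, and MAP1LC3B was higher by 0.77 ± 0.085. At 24 h, 6 genes were lower and 1 higher, against 26.5% of all genes (8.32% lower, 18.2% higher). CTSZ (-0.48) led those lower, and the higher was the brighter probe of TFE3 (0.40), whose dimmer probe was at -0.37. This count was 4 without replicate 4 of G-1 IC50 24 h, against 19.05% of all genes. It was 11 with the 50th percentile, none of them higher, against 15.1% of all genes. With the normexp background correction it was 13, none of them higher, against 20.4%. With quantile normalization it was 14, 1 of them higher, against 24.05%. These comparisons share their G-1 arrays with those against DMSO.

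A wider list of 113 other lysosomal and autophagy genes, of which 104 were tested, was also examined at 72 h of G-1 1 µM. Of these, 52 fell and 23 rose, with a median of -0.21 on the log2 scale, so that 72.1% changed, against 66.1% of all genes (35.2% higher, 31% lower). Of the 25 other luminal hydrolases and cofactors, 18 fell and 3 rose (median -0.57). GAA, the acid alpha-glucosidase, fell by 1.53 ± 0.079, the cysteine protease CTSO by 1.50 ± 0.17 and CTSH by 1.32 ± 0.089. CTSC, which activates serine proteases of immune cells, rose by 2.10 ± 0.11 (adjusted p = 4.34e-12), and its dimmer probes rose by 0.98 and 1.39. CTSC was the luminal gene of the wider list that rose more than 2-fold.

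The other lists were more mixed. Of 8 other membrane proteins 5 fell and 2 rose, of 10 other V-ATPase subunits 2 fell and 3 rose, and of 6 genes of sorting to lysosomes 3 fell and 1 rose. ATP6V0D2, an alternative subunit of the pump known from osteoclasts, was not above background on any DMSO array at 72 h and was above it on all 4 of G-1 1 µM. Against the lowest signal well above background it was at least 3.81-fold higher. It passed the filter on dim probes only through the group in which it was high. No p-value is therefore given for ATP6V0D2, although it is counted among the 3 subunits that rose. Of 18 genes of the TFEB family and of nutrient control 9 fell and 5 rose, and RRAGB, a small GTPase that recruits mTORC1 to lysosomes, fell by 1.19 ± 0.16. Of 37 other autophagy genes 15 fell and 9 rose, none more than 2-fold. The following were chosen after their values were seen. Of the proteins of the LC3 and GABARAP family besides MAP1LC3B and GABARAPL1, MAP1LC3A fell by 0.54, GABARAP by 0.64 and GABARAPL2 by 0.39, so that MAP1LC3B was the single member of that family in these lists that rose. Of the enzymes and scaffolds that attach these proteins to membranes, only some that rose are named. They give no direction for that group of genes, and the 37 other autophagy genes as a list had a median of -0.14. ATG3 rose by 0.67, ATG5 by 0.72, ATG7 by 0.42, ATG12 by 0.56 and ATG16L1 by 0.69. Others that were tested, among them ATG10 and the ATG4 genes, are left out of this choice. The dimmer probes of ATG5, ATG7 and ATG12 did not pass, at 0.16, -0.25 and -0.27, and that of ATG16L1 rose by 1.44. The kinase ULK1, which starts autophagy, fell by 0.64, and the receptor NBR1 by 0.78.

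**Figure D5:**
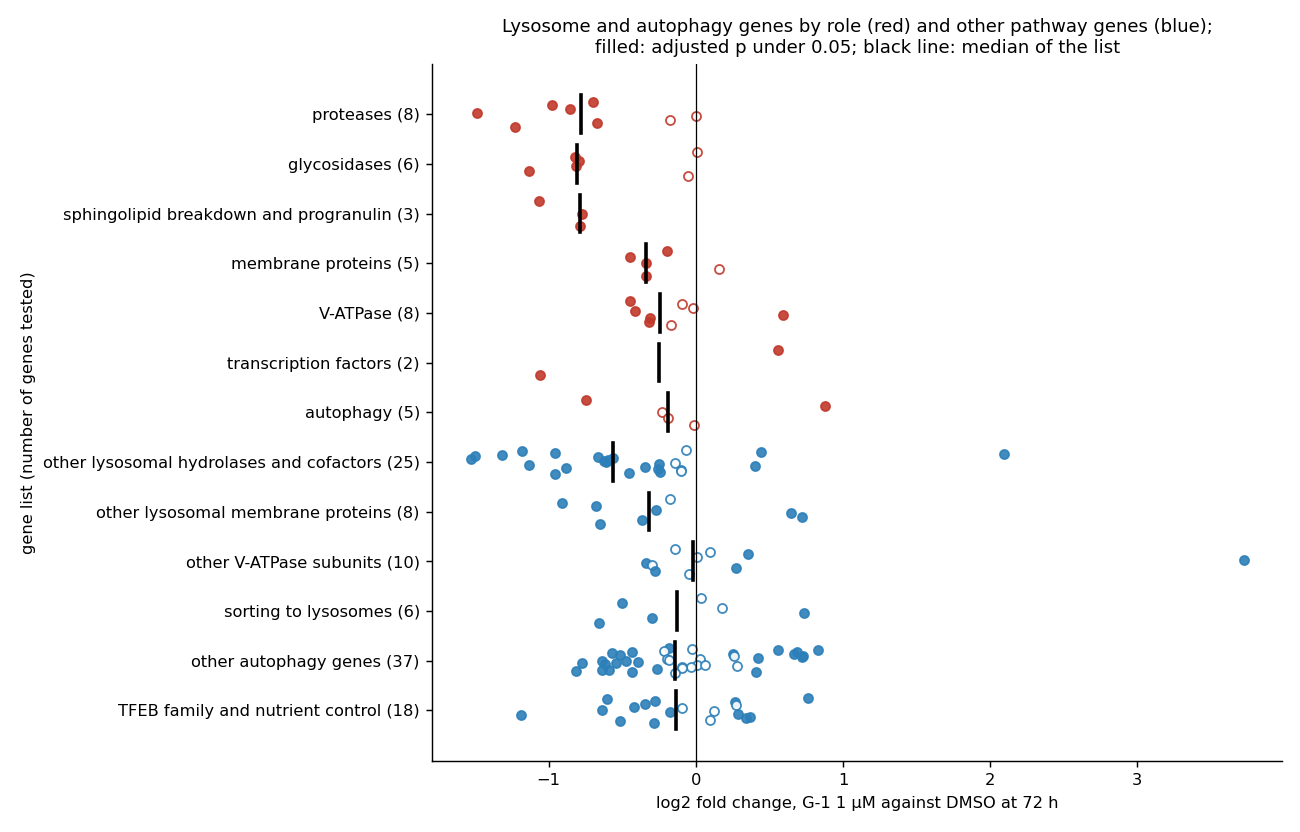
Log2 fold change of G-1 1 µM against DMSO at 72 h (x axis) for each tested gene in 7 roles of the 37 genes (red) and 6 lists of other pathway genes (blue), with the number of genes in brackets and the median as a black line. Filled points passed an adjusted p of 0.05, luminal proteins of both sets lie mostly to the left, and CTSC (2.10) and ATP6V0D2 (its fitted value) lie far to the right.

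Against G-1 IC50 at 72 h, 44 of the 104 were lower and 23 higher in G-1 1 µM, against 65.1% of all genes changed. In the interaction with duration, 34 were lower and 12 higher, against 34.1%. Fewer genes of the wider list passed in the following comparisons. At 24 h of G-1 1 µM, 12 of the 104 were lower and 13 higher (median -0.01), against 30.6% of all genes changed. At 72 h of G-1 IC50, 1 passed, CTSH, which was lower by 0.52 ± 0.089 (adjusted p = 0.00423), against 0.906% of all genes. In DMSO, 5 were higher and 1 lower at 72 h than at 24 h, against 3.34% of all genes changed, and those higher included the luminal hydrolases CTSH (0.58), IDUA (0.44) and GAA (0.37), named here after their values were seen.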

How the data were processed

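RNA from U251 cells was hybridised to 24 one-colour Agilent arrays of human genes, 4 for each of 6 groups. The authors deposited scanner output, with spot intensity after background correction by Feature Extraction (12.1.1.1 per the file headers, 10.7.3.1 per the submitters' processing notes), and a log2 table. The deposited log2 table equals the 75th percentile scaling with each probe centred on its median over arrays (99.97% of values within 0.01). Here log2 processed intensity minus the 75th percentile of the array was used, spots of a probe were averaged, and control spots, outlier-flagged spots and 83 probes without a value on some array were left out. Of 58118 probes, 22970 were tested, namely those above background on every array of at least 1 group. limma 3.58.1 (R 4.3.3) was fitted to 6 group means with eBayes, p-values were adjusted by Benjamini-Hochberg over all tested probes, and a gene counted as changed at an adjusted p under 0.05. The script was tested on simulated data. Tables and figures were made with Python 3.11.15 (NumPy 2.4.6, pandas 2.3.3, Matplotlib 3.10.9). The number of arrays limits the precision, and replicates of a group correlated at 0.990 to 0.996 over probes.

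The brightest probe represented a gene. Genes were named from RefSeq accessions, which gave 24817 symbols. The 37 genes and all lists were chosen with earlier results of these data known. Values per array were given for genes changed more than 2-fold against DMSO, for the gene of each role with the largest change at 72 h, and for TFEB and TFE3, and also for CTSD and CTSB, chosen after their values were seen. From other lists up to 3 genes past 2-fold per list, direction and comparison were named. CD68 and ATP6V0A2, among others, matched no probe, and CTSS, GALC, ATP6V1B1, ATG14, SNAP29 and TFEC were not tested.

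Groups followed the sample titles. Alternatives were the 50th percentile, quantile normalization, normexp (offset 50), other filters on dim probes, the deposited log2 table, fits of only the arrays compared, the slide or the replicate number as a block, a prior variance with an intensity trend, the t-test named in the study's methods, a fold threshold of 2, the mean over probes, and each array left out in turn.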

Additional observations from a re-analysis of the deposited data

Results flagged for a closer look

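In 13 of 288 sets of 4 replicates (48 probes in 6 groups), 1 array stood apart from the other 3 by Dixon's criterion (the gap to the nearest array over the whole range, at the 95% level), which chance gives in about 1 of 20 sets. Levels are log2 relative to the 75th percentile of the array. The high arrays were ATP6V1B2 in G-1 IC50 24 h replicate 4 (4.53, the others 4.20 to 4.23), ATP6V1H in G-1 IC50 24 h replicate 4 (2.03, the others 1.51 to 1.60), ATP6V1H in DMSO 72 h replicate 1 (1.69, the others 1.51 to 1.53), CTSA in DMSO 72 h replicate 4 (8.27, the others 8.02 to 8.04), CTSD in G-1 IC50 24 h replicate 3 (8.05, the others 7.82 to 7.85), CTSF in G-1 1 µM 24 h replicate 4 (6.16, the others 5.76 to 5.82), CTSK in G-1 1 µM 72 h replicate 4 (1.86, the others 1.74 to 1.76), LAMP1 in G-1 IC50 72 h replicate 4 (8.38, the others 8.16 to 8.18) and LAMP2 (probe 2 in brightness) in G-1 IC50 24 h replicate 4 (5.23, the others 4.84 to 4.88). The low arrays were ASAH1 in G-1 1 µM 72 h replicate 2 (5.13, the others 5.35 to 5.39), GLA in G-1 IC50 24 h replicate 1 (5.46, the others 5.57 to 5.58), PSAP (probe 2 in brightness) in G-1 IC50 24 h replicate 1 (6.62, the others 6.78 to 6.79) and TPP1 (probe 2 in brightness) in G-1 IC50 72 h replicate 2 (2.36, the others 2.88 to 2.91). Replicate 4 of G-1 IC50 24 h was high in 3 of the sets.

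The effect of G-1 1 µM differed between 72 h and 24 h, by the test of the interaction itself, at 24 probes of the 37 genes. The difference on the log2 scale was negative for TPP1 (-1.27), CTSF (-1.25), CTSD (-1.01), NAGLU (-1.002), CTSA (probe 2 in brightness) (-0.89), HEXA (-0.83), TFEB (-0.76), TPP1 (probe 2 in brightness) (-0.73), PSAP (-0.72), ASAH1 (-0.72), PSAP (probe 2 in brightness) (-0.70), CTSA (-0.70), GRN (-0.65), GLB1 (-0.62), CTSB (-0.59), LAMP2 (probe 3 in brightness) (-0.55), GABARAPL1 (-0.52), GUSB (-0.49), ATP6AP1 (-0.39), ATP6V0D1 (-0.38) and LAMP2 (-0.31). It was positive for MAP1LC3B (probe 2 in brightness) (0.61), MAP1LC3B (0.66) and TFEB (probe 2 in brightness) (2.69). The treated arrays of both durations lay on the third slide, and a constant offset of that slide cancels in these values. The calls of ATP6V0D1 and LAMP2 were lost in 16 and 17 of the alternatives, that of ATP6V0D1 also with the slide as a block.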

How the results depend on the processing

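At 72 h of G-1 1 µM, the count against DMSO (26) stayed between 24 and 27, with 43.8% to 69.1% of all genes. The count against G-1 IC50 (25) stayed between 23 and 28, with 56.1% to 68.6% of all genes. With a fold threshold of 2 these counts were instead 5 (12.3%) and 2 (11.4%). With 1 array left out the counts ranged from 24 to 26 (62.45% to 64.43%) and from 23 to 26 (61.23% to 63.11%). The interaction between this dose and duration, 18 genes, gave 15 to 19 without a fold threshold, with 12.58% to 39.33% of all genes. With 1 array left out it gave 16 to 18, with 28.94% to 35.48%. TFEB reversed with the mean of its probes, to 0.58 against DMSO, 0.75 against G-1 IC50 and 0.97 in the interaction, since the probes are opposite.

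Counts at 24 h and between DMSO durations depended on the setting, and the cause was not tested. At 24 h, for the 1 µM dose against DMSO (11), the count was 5 with the 50th percentile (15.2% of all genes changed). It was also 5 with only the arrays compared (23.1%) and with the adjusted methods' t-test (20.4%). The count was 7 with the mean over probes (30.5%), 0 past 2-fold, and 6 to 11 with 1 array left out. Against G-1 IC50 at 24 h (7) the count was 11 with the 50th percentile (15.1% of all genes) and 14 with quantile normalization (24.05%). It was 13 with normexp (20.4%), 0 past 2-fold, and 4 to 9 with 1 array left out. For DMSO at 72 h against 24 h (4) the count was 1 with the 50th percentile (0.674% of all genes) or normexp (4.59%). It was 7 with quantile normalization (3.84%) or an intensity trend (3.93%). It was 0 past 2-fold, with no filter (0.407%), with only the arrays compared (0.302%) or with the adjusted methods' t-test (0.281%). The count was 9 with that test unadjusted (18.3%), and 1 to 4 with 1 array left out. The 50th percentile moved the median of all genes from 0.05 to -0.12 (24 h) and from 0.05 to -0.11 (72 h) between the doses of G-1.

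G-1 IC50 gave 0 genes at 24 h and in the interaction under every alternative run. At 72 h it gave 0 except for 10 with the unadjusted methods' t-test (10.8% of all genes) and 1 with the replicate block (2.065%). It also gave 1 with the replicate block within each duration (2.28%).

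Arrays with the same replicate number did not deviate together throughout. Their correlation over probes was above 0.1 in 33 of 60 pairs (median 0.12), and in 17 of 24 pairs of the same duration (median 0.19), against 38 of 180 pairs of different numbers (median -0.04). The rule used here required every pair to pass 0.1, so the main fit did not take the numbers as a pairing. Pairs of the same number still passed more often than others. The counts at 24 h and between DMSO durations depend on this choice. With the replicate number as a block, counts for the 1 µM dose against DMSO were 14 at 24 h (35.1% of all genes) and 26 at 72 h (68.3%). Between doses they were 9 (31.2%) and 26 (67.8%), in the interaction 19 (37.9%) and between DMSO durations 10 (6.44%). A block within each duration gave 15 for the 1 µM dose at 24 h (37.15%) and 1 for G-1 IC50 at 72 h (2.28%). The slide could not enter as a block where G-1 1 µM was compared with another treatment, and the DMSO durations could not be fitted with a replicate block within each duration. The methods' t-test was not run on interactions.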
